A study of Mus musculus with 18 samples.

Results

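MHC and antigen presentation genes were followed through 6 germ cell populations of the mouse testis: the class I heavy chain genes H2-K1 and H2-D1, their light chain B2m, the class II chain H2-Ab1, the peptide transporter genes Tap1 and Tap2, the loading factor Tapbp, the class I transactivator Nlrc5, and the proteasome subunits Psmb8 and Psmb9. They are 10 of the 46603 genes in the count table. They were chosen by symbol with their levels in these libraries already known, so their levels are given as a description, with no p-value, and counts of those past the threshold used for all genes are given once with nothing read from them. RNA was read in 18 libraries, 3 for each population. By the usual meaning of such names, which the labels leave unexplained, Undiff.Spg and Diff.Spg are undifferentiated and differentiating spermatogonia. PreL, LZ and PD would be preleptotene, leptotene to zygotene and pachytene to diplotene spermatocytes, and RS round spermatids. Cells of every population came from adult male Stracre-GAG-tdTomato mice, a cross named for a Cre transgene and a red reporter, with the strain given as C57BL/6, and were sorted on an Aria 3. All groups share those transgenes, none carries a further treatment, and the sources used here give neither the gates that separated the populations nor the age in weeks or the number of animals per library. Nothing says that the 3 libraries of a group came from separate animals, so p-values measure the spread between these libraries, which may be technical.

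Class I molecules show peptides made inside the cell to CD8 T cells. The proteasome cuts proteins, the transporter formed by TAP1 and TAP2 carries the peptides into the endoplasmic reticulum, tapasin (the product of Tapbp) holds the empty class I molecule at the transporter, and a heavy chain leaves for the surface only with beta-2-microglobulin and a peptide. Psmb8 and Psmb9 replace constitutive catalytic subunits in the immunoproteasome, and NLRC5 is the factor that switches on class I genes, together with interferon and NF-kappaB signals. Class II molecules pair an alpha and a beta chain, show peptides from the outside to CD4 T cells, and are normally limited to specialised antigen-presenting cells. The testis is known as an immune-privileged organ, and germ cells beyond the spermatogonia are known for little classical class I at the surface.

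The promoters of both class I heavy chain genes and of B2m are shown because these genes shared a maximum in LZ and differed elsewhere. They are RefSeq sequences on GRCm38.p6, each from 250 bases before to 50 bases after a gene start, 5′ to 3′ on the gene's own strand. Capitals mark matches, on either strand, to motifs chosen after the levels were seen. The windows are chr17:34000298-34000597 on the minus strand for H2-K1, chr17:35262844-35263143 on the plus strand for H2-D1 and chr2:122147437-122147736 on the plus strand for B2m.
H2-K1: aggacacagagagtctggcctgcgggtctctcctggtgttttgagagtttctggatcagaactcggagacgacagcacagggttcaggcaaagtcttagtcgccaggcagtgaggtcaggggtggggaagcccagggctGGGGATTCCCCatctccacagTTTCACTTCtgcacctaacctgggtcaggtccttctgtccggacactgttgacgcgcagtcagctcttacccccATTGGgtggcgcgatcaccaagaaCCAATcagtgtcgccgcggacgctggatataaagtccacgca
H2-D1: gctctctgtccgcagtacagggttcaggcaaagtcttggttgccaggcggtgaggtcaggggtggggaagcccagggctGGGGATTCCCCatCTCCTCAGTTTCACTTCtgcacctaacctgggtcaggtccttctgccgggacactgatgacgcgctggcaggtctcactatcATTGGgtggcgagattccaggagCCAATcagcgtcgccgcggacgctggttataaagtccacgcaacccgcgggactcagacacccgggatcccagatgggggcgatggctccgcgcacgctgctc
B2m: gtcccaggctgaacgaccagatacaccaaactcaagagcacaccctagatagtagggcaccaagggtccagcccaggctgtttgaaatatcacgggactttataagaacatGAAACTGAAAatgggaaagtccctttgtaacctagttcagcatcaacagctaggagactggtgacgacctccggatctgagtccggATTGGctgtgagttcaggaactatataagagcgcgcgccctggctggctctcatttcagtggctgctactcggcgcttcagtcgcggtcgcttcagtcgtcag
The H2-K1 and H2-D1 windows were identical at 214 of 239 aligned bases (89.5%). Both hold GGGANTNCCC, a form of the NF-kappaB site, as overlapping matches on the 2 strands, and 1.1% of all 32817 promoter windows hold it. Both also hold GAANNGAAA, a short form of the interferon response element, which 7.52% of all windows hold. The longer form GAAANNGAAA, found in 3.43% of all windows, was present in B2m, where the short form was not found. CCAAT was found in all 3 windows and in 37.4% of all windows. CNCCTCAG, known as the motif of the meiotic factors STRA8 and MEIOSIN, was found in the H2-D1 window, where its last bases touch the interferon element, and in 7.94% of all windows. Windows were matched for 7 of the 10 genes, with 8 windows in all, since H2-K1 has a second start.

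Of the 10 genes, 8 lie in the major histocompatibility complex on chromosome 17, B2m lies on chromosome 2 at 122147686 to 122153083 and Nlrc5 on chromosome 8 at 94434356 to 94527272 (GENCODE M21 on GRCm38). From Tapbp at 33915899 to H2-D1 at 35267499 the complex spans 1351.6 kb. Psmb9, Tap1, Psmb8, Tap2 and H2-Ab1 follow each other within 87.4 kb, from 34181987 to 34269419. Tap1 and Psmb9 are transcribed away from each other, with starts 226 bases apart in RefSeq, and their exons share 212 bases on opposite strands. The sources used here do not say whether reads were counted by strand, so reads from that overlap cannot be assigned.

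Library totals ran from 11777947 to 16607462 counts. Stage markers did not all follow the usual meaning of the names. Stra8, a gene of entry into meiosis that is known for preleptotene cells, was at a mean of 327 CPM in Diff.Spg, 190 in PreL and 1054 in LZ, so PreL was below both of its neighbours. Dmc1, a meiotic recombinase, was at 80 CPM in PreL and 538 in LZ, and Piwil1 was highest in PD at 1992 CPM. Acr, a sperm protease gene, was at 19.8 CPM in PreL replicate 2 and in LZ replicate 2, against 1.15 to 3.82 CPM in the 4 other libraries of those groups, and Piwil1 and Spag6 were also highest in these 2 libraries of their groups. The protamine gene Prm1 was instead highest in LZ replicate 1, at 22.7 CPM against 4.23 and 2.72 CPM in replicates 2 and 3. The differences between LZ and PreL are also given without these libraries, after the results.

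Levels are CPM, a gene's reads relative to the library total, with totals scaled by the TMM method, and values written with ± are means and SD of 3 libraries. Fold changes of these genes are ratios of group means, and log2 fold changes with standard errors (SE) come from the model fitted to all 18 libraries. In bulk RNA, fewer cells of a type that hold a transcript and less of it per cell cannot be told apart.

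The 10 genes did not share a single course. H2-K1, H2-D1, H2-Ab1, B2m and Tap2 had their highest mean in LZ, Tap1, Tapbp, Psmb8 and Psmb9 in Undiff.Spg, and Nlrc5 in RS. Of all 18547 tested genes, 17.4% were highest in LZ, 19.5% in Undiff.Spg and 27.1% in RS. B2m and Tap2 were high in both Undiff.Spg and LZ, at 94.9% and 72.5% of their LZ mean in Undiff.Spg. The table of group means as a share of each gene's highest group shows these courses as separate blocks.

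**Figure D1:**
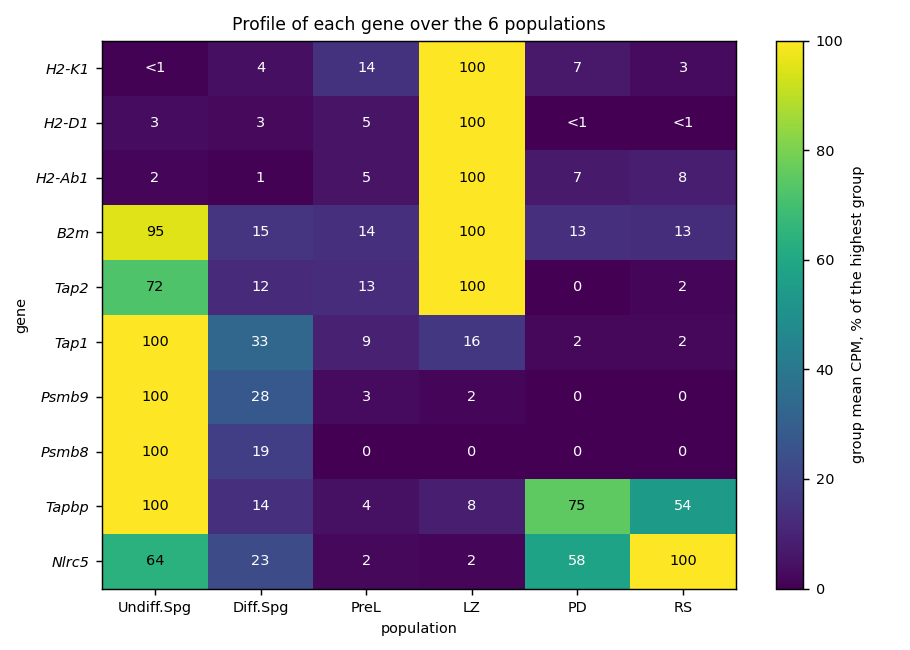
Group mean of each gene as a percentage of its own highest group, with the 6 populations on the horizontal axis and the 10 genes on the vertical axis. H2-K1, H2-D1 and H2-Ab1 have a single block of colour in LZ, B2m and Tap2 have blocks in Undiff.Spg and LZ, and Tapbp and Nlrc5 are lowest in PreL and LZ.

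H2-K1, a classical class I heavy chain, was the most abundant of the 10 per kb of transcript in Diff.Spg, PreL and LZ. It was measured at 3.78, 4.16 and 3.41 CPM in the 3 Undiff.Spg libraries and at 34.6, 39.0 and 37.4 CPM in Diff.Spg. PreL libraries held 118, 158 and 127 CPM and LZ libraries 712, 1000 and 1086 CPM. PD libraries held 64.5, 71.4 and 59.0 CPM and RS libraries 25.0, 30.5 and 26.9 CPM. No 2 groups next to each other in the order of levels overlapped: LZ stood above PreL, PD, Diff.Spg, RS and Undiff.Spg, in that order. The mean was 9.78-fold higher in Diff.Spg than in Undiff.Spg (log2 3.29, SE 0.18), 3.64-fold higher in PreL than in Diff.Spg (1.86, SE 0.16) and 6.93-fold higher in LZ than in PreL (2.79, SE 0.16). It was then 14.4-fold lower in PD than in LZ (-3.84, SE 0.17) and 2.36-fold lower in RS than in PD (-1.24, SE 0.16). RS still held 7.26 times the Undiff.Spg mean.

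H2-D1, the second classical heavy chain, shared the LZ maximum but not the spermatogonial increase. Its levels were 10.8, 9 and 9.67 CPM in Undiff.Spg, 5.97, 7.56 and 8.47 CPM in Diff.Spg and 7.85, 22.4 and 15.6 CPM in PreL. LZ held 198, 322 and 352 CPM, PD 0.55, 0.91 and 0.78 CPM and RS 0.31, 0.77 and 0.26 CPM. PreL overlapped Undiff.Spg, and RS overlapped PD, while every LZ library stood above all others. The LZ mean was 19-fold that of PreL (log2 4.25, SE 0.32), and the PD mean was 389-fold below LZ (-8.59, SE 0.43). PD and RS rest on few reads, 24 and 13 over 3 libraries.

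Per kb of transcript, H2-K1 was at 0.454 to 0.601 times the H2-D1 level in Undiff.Spg libraries. The ratio was 5.74 to 7.53 in Diff.Spg, 9.18 to 19.6 in PreL and 4.01 to 4.66 in LZ, so both chains were high there. In PD it was 98 to 153, since H2-D1 was nearly gone while H2-K1 kept a mean of 64.9 CPM. The 2 genes resemble each other: of all 50-base windows of the H2-K1 transcript, 6.94% are identical in H2-D1, and 8.79% occur in some other gene. For H2-D1 14.3% of windows occur in another gene, most often H2-Q1 with 7.4%. Levels of both are therefore uncertain where reads fall in these windows. The sum over all 31 H2 class I genes does not depend on how counted reads were split among them. It would still lack shared reads that were left uncounted or given to other genes. The sum was 43.2 ± 1.07 CPM in Undiff.Spg, 68.1 ± 2.79 in Diff.Spg, 153 ± 28.5 in PreL, 1241 ± 279 in LZ, 68 ± 5.88 in PD and 32.4 ± 3.5 in RS. H2-K1 made up 7.79% to 9.49% of those reads in Undiff.Spg libraries and 93.5% to 97% in PD. The summed level was lower in RS than in Undiff.Spg (log2 -0.42), where H2-K1 alone was higher (log2 2.86).

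**Figure D2:**
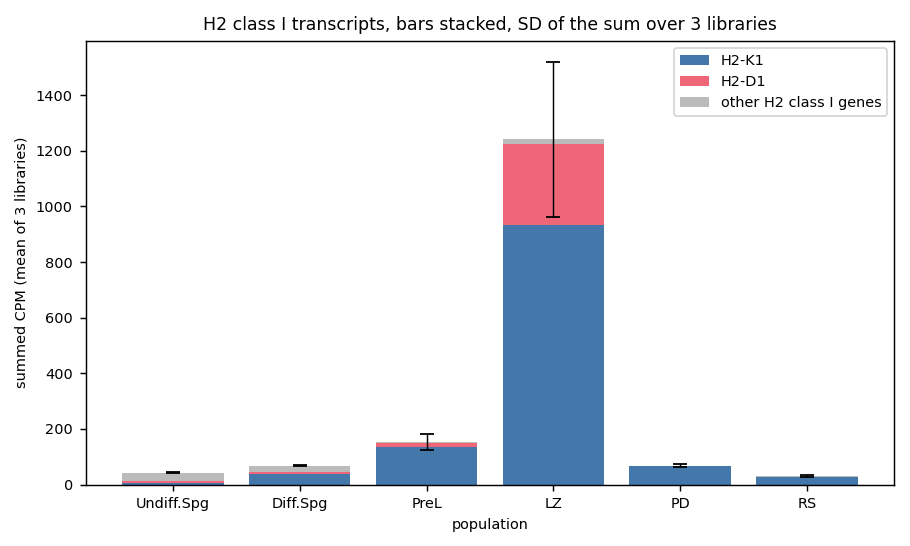
Summed CPM of the 31 H2 class I genes in each population, stacked as H2-K1, H2-D1 and the other genes, with bars for the mean of 3 libraries and error bars for the SD of the sum. The LZ sum of 1241 CPM is made up almost wholly of H2-K1 and H2-D1, and the Undiff.Spg sum of 43.2 CPM mostly of other class I genes.

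B2m, the light chain that every classical heavy chain needs, had 2 maxima. It was at 34.1, 23.4 and 26.9 CPM in Undiff.Spg, and at 26.5, 30.9 and 31.4 CPM in LZ. Diff.Spg held 4.91, 3.67 and 4.67 CPM and PreL 3.87, 3.90 and 4.28 CPM. PD held 4.21, 3.82 and 3.81 CPM and RS 4.90, 3.64 and 3.02 CPM. Undiff.Spg and LZ overlapped each other, and the 4 remaining groups overlapped among themselves and stood below both. The LZ mean was 7.37-fold above PreL (log2 2.88, SE 0.19) and 7.5-fold above PD. Per kb of transcript, the summed H2-K1 and H2-D1 level was 0.189 to 0.251 times that of B2m in Undiff.Spg libraries, 17.1 to 23.9 times in PreL and 17.3 to 22.9 times in LZ. The ratio was 8.19 to 10 in PD and 2.74 to 4.77 in RS, so light chain transcripts outnumbered these heavy chain transcripts per kb in Undiff.Spg, and the reverse held in the 5 other populations.

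**Figure D3:**
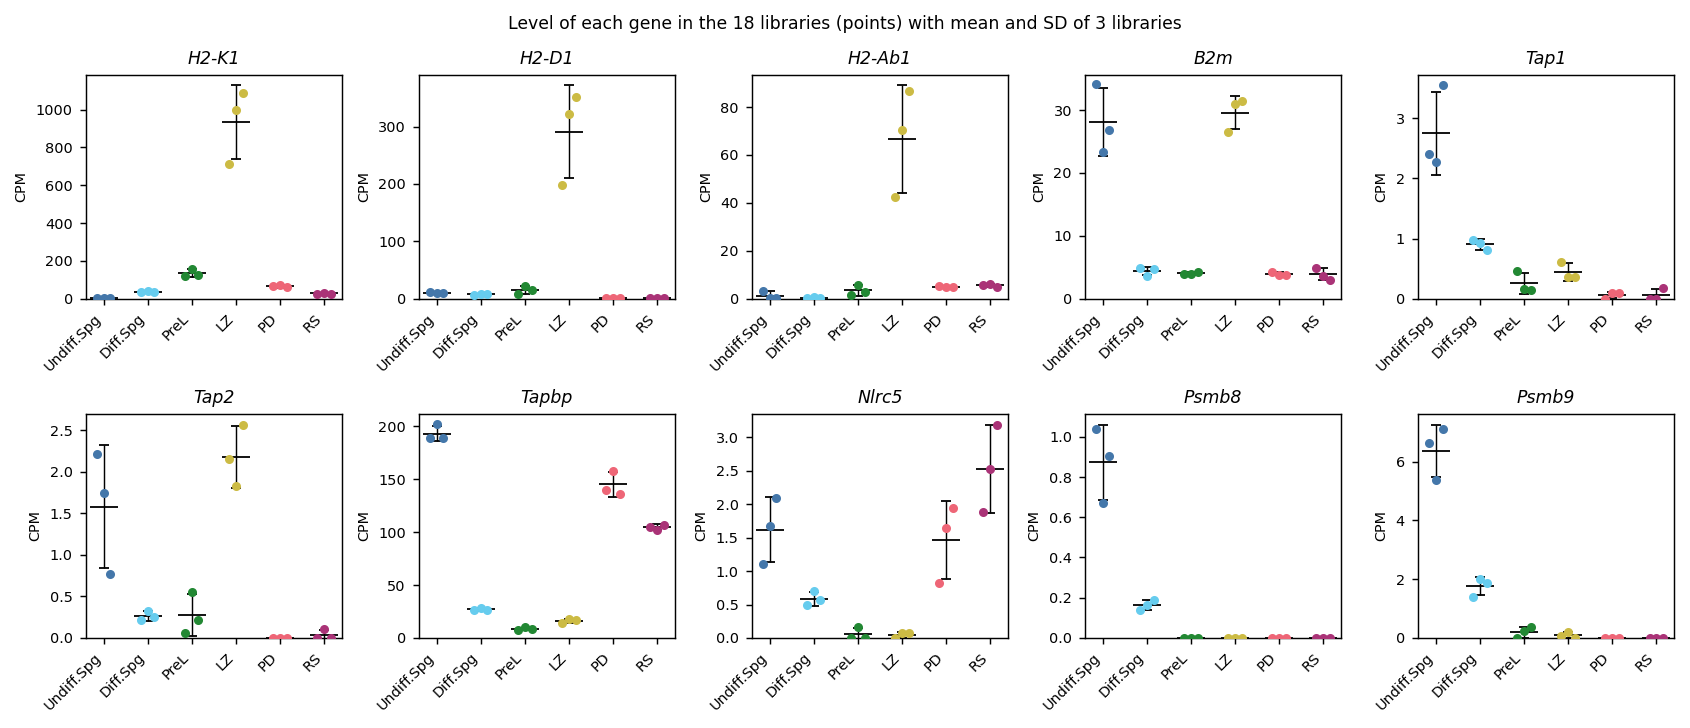
CPM of each of the 10 genes (vertical axis, linear and starting at 0, with its own scale in each panel) in the 6 populations (horizontal axis). Points are libraries, wide ticks are means and error bars are SD of 3 libraries. The 3 LZ libraries of H2-K1, H2-D1 and H2-Ab1 stand above all others.

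In the peptide supply and loading group, transcripts of the transporter were scarce throughout. Tap1 was at 2.41, 2.28 and 3.55 CPM in Undiff.Spg, 0.98, 0.92 and 0.81 CPM in Diff.Spg, 0.45, 0.16 and 0.14 CPM in PreL and 0.61, 0.35 and 0.37 CPM in LZ. In PD and RS it had 2 reads in each group. The groups went down without overlap from Undiff.Spg to Diff.Spg to LZ, and LZ and PreL overlapped. The mean was 3.04-fold lower in Diff.Spg than in Undiff.Spg (log2 -1.60, SE 0.37).

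Tap2, its partner in the transporter, was at 2.22, 1.75 and 0.77 CPM in Undiff.Spg and at 2.15, 1.83 and 2.57 CPM in LZ. Diff.Spg held 0.21, 0.32 and 0.25 CPM and PreL 0.06, 0.55 and 0.21 CPM. No read was counted in PD and 1 in RS. Undiff.Spg and LZ overlapped and stood above all others. The LZ mean was 7.98-fold above PreL (log2 2.92, SE 0.54), which was 4 on the log2 scale without PreL replicate 2, and at least 23.4-fold above PD, taking 3 reads over the group as the floor. Per kb of transcript, the LZ mean was 0.634 CPM for Tap2 and 0.15 CPM for Tap1, and Tap1 had no maximum there.

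Tapbp, which encodes tapasin, was the most abundant gene of the 10 per kb in Undiff.Spg, PD and RS. It was at 189, 202 and 189 CPM in Undiff.Spg, 26.0, 28.4 and 26.3 CPM in Diff.Spg and 7.50, 10 and 8.28 CPM in PreL. LZ held 14.2, 18 and 16.8 CPM, PD 140, 158 and 136 CPM and RS 105, 102 and 107 CPM. No 2 groups neighbouring in level overlapped. The mean was 7.2-fold lower in Diff.Spg than in Undiff.Spg (log2 -2.85, SE 0.13), 3.13-fold lower again in PreL, and 8.86-fold higher in PD than in LZ (3.15, SE 0.13). From PreL to LZ, where H2-K1 and H2-D1 were far higher, it was 1.9-fold higher (0.92, SE 0.13), yet at the LZ maximum of those genes it was at 8.4% of its own highest mean. The antisense gene Gm19412 covers 24.9% of the Tapbp exon bases. Like Tapbp it was low in PreL and LZ, at 0.0983 and 0.0714 CPM. Unlike Tapbp it was highest in PD, at 4.67 CPM, against 2.89 in RS and 1.31 in Undiff.Spg. Zbtb22, on the same strand as Tapbp, shares 4.11% of the Tapbp exon bases and was at 28.5 CPM in LZ and 119 in PD. The part of these overlaps in the Tapbp counts was not tested.

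Psmb8 and Psmb9, the inducible immunoproteasome subunits, were present in spermatogonia and nearly absent afterwards. Psmb8 had 16, 10 and 13 reads in Undiff.Spg and 2, 3 and 3 reads in Diff.Spg. In the 12 libraries of the 4 later populations no read was counted, which allows up to 0.0602 CPM over the PreL group and up to 0.0991 CPM over the RS group. Psmb9 had 102, 80 and 102 reads in Undiff.Spg, 20, 37 and 30 in Diff.Spg, 0, 4 and 5 in PreL and 1, 3 and 0 in LZ. No read was counted in PD and RS. The Psmb9 mean of 6.37 ± 0.895 CPM in Undiff.Spg was 3.63-fold that of Diff.Spg (log2 -1.85, SE 0.39, for Diff.Spg against Undiff.Spg) and at least 64.3-fold that of RS.

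Set per kb against the constitutive subunit that each replaces, Psmb8 and Psmb9 were a small share even at their highest. In Undiff.Spg libraries Psmb8 was at 0.646% to 1.14% of Psmb5 and Psmb9 at 1.25% to 1.84% of Psmb6. Psmb10, the remaining inducible subunit and not among the 10, was at 64.2% to 66.8% of Psmb7. The Psmb10 share was 6.44% to 7.72% in Diff.Spg, 3.29% to 4.93% in LZ and 0.127% to 0.202% in RS. Psma8, the alpha subunit of the testis proteasome, was at 15.3% to 17% of Psma7 in Undiff.Spg and at 1979% to 2422% of it in PD. The 3 inducible subunits were thus unequal in Undiff.Spg. Of the 3, Psmb10 alone kept reads in every population.

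H2-Ab1, the class II beta chain, had its maximum in LZ. It was at 42.4, 70.5 and 86.9 CPM there, against 1.59, 5.77 and 2.86 CPM in PreL. PD held 5.12, 4.82 and 4.88 CPM and RS 5.84, 6.17 and 4.83 CPM, and the 2 groups overlapped. The LZ mean was 19.6-fold above PreL (log2 4.28, SE 0.52) and 13.5-fold above PD. Diff.Spg held 0.35, 0.59 and 0.44 CPM. Undiff.Spg libraries held 3.26, 0.40 and 0.21 CPM, with replicate 1 standing apart, and the log2 difference of Diff.Spg from Undiff.Spg was -1.47 with that library and 0.59 without it. The RS difference from Undiff.Spg likewise moved from 2.08 to 4.13 on the log2 scale.

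Class II partner genes, chosen after their values were seen, differed in course. H2-Aa, the alpha chain with which it pairs, had 74 reads in Undiff.Spg replicate 1, none in the 2 other libraries of that group and 5 reads over the 3 LZ libraries. Cd74, the invariant chain, had 237 reads in Undiff.Spg replicate 1, none in replicates 2 and 3, and 2 over LZ. The summed leukocyte markers were 26.8 CPM in that library and 13.1 and 13.8 CPM in the other Undiff.Spg libraries. C1qa was at 2.02, 0 and 0.0696 CPM in replicates 1 to 3, Csf1r at 1.44, 0 and 0.0696 CPM and Lyz2 at 0.848, 0 and 0 CPM. Mrc1, at 4.44, 4.63 and 3.96 CPM, and Cd68, at 4.11, 2.82 and 3.55 CPM, were shared by all 3. The part of such cells in the class II reads of replicate 1 was not tested. In LZ the leukocyte sum was 41 to 57 CPM, led by Cd3e at up to 52.8 CPM, with Lyz2 at 0 and 4 of the 18 markers reaching 1 CPM in a library. Ciita, the class II transactivator, was at most at a mean of 0.932 CPM, in Diff.Spg, and at 0.245 CPM in LZ. H2-Eb1, another class II beta chain, was also higher in LZ, at 1.46, 0.916 and 1.03 CPM, than in PreL, at 0.227, 0.439 and 0.143 CPM, and PD, with a mean of 0.276 CPM. It too was highest in Undiff.Spg replicate 1, at 3.85 CPM.

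Nlrc5, the class I transactivator, was nearly absent where the class I genes were highest. It was at 1.11, 1.68 and 2.09 CPM in Undiff.Spg, 0.49, 0.70 and 0.56 CPM in Diff.Spg, 0.82, 1.64 and 1.95 CPM in PD and 1.88, 2.53 and 3.19 CPM in RS. PreL and LZ held 3 and 2 reads over their 3 libraries. Undiff.Spg, PD and RS overlapped, and every library of these groups stood above every PreL and LZ library. Nlrc5 was 2.78-fold lower in Diff.Spg than in Undiff.Spg (log2 -1.44, SE 0.44). Its direction in RS against Undiff.Spg turned with the scaling, at 0.65 on the log2 scale with TMM and -0.15 with total library size.

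Counted by the threshold used for all genes (edgeR's quasi-likelihood test, Benjamini-Hochberg adjusted p under 0.05, no fold condition), 1 of the 10 genes was higher and 7 lower in Diff.Spg than in Undiff.Spg, against 20.4% and 23% of all tested genes. For PreL against Diff.Spg the counts were 3 higher and 5 lower, against 20.4% and 24.8%. For LZ against PreL they were 6 higher and 0 lower, against 24.3% and 23.2%. For PD against LZ they were 2 higher and 6 lower, against 42.1% and 40.8%, and for RS against PD 0 and 2, against 30.3% and 28.6%. For RS against Undiff.Spg they were 2 and 7, against 42.2% and 46.5%. The genes were chosen with these contrasts known, so nothing is read from the counts. With total library size in place of TMM, the 4516 higher and 4302 lower calls of LZ against PreL over all genes became 3594 and 5401.

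Other genes of antigen presentation, which the choice of the 10 did not use, were tested as 7 lists of 137 genes. Of these, 102 passed the low-count filter; the lists were made with earlier results of these data known. From Undiff.Spg to Diff.Spg 12 rose, 56 fell and 34 did not pass the test. The falls were 54.9% of the lists against 23% of all tested genes, with a median log2 change of -0.79 against 0.00. From Diff.Spg to PreL 15 rose and 41 fell, the falls being 40.2% against 24.8% (median -0.46 against 0.02). From PreL to LZ 26 rose and 32 fell, 25.5% and 31.4% against 24.3% and 23.2% (median -0.02 against 0.00). From LZ to PD the 42 falls, 41.2%, were near the 40.8% of all tested genes, and the 27 rises were 26.5% against 42.1% (median -0.99 against 0.00); with total library size 19 rose and 47 fell. From PD to RS 21 rose and 28 fell, 20.6% and 27.5% against 30.3% and 28.6% (median -0.14 against 0.00). In RS against Undiff.Spg, 21 were higher and 72 lower, 20.6% and 70.6% against 42.2% and 46.5% (median -4.17 against -0.26).

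**Figure D4:**
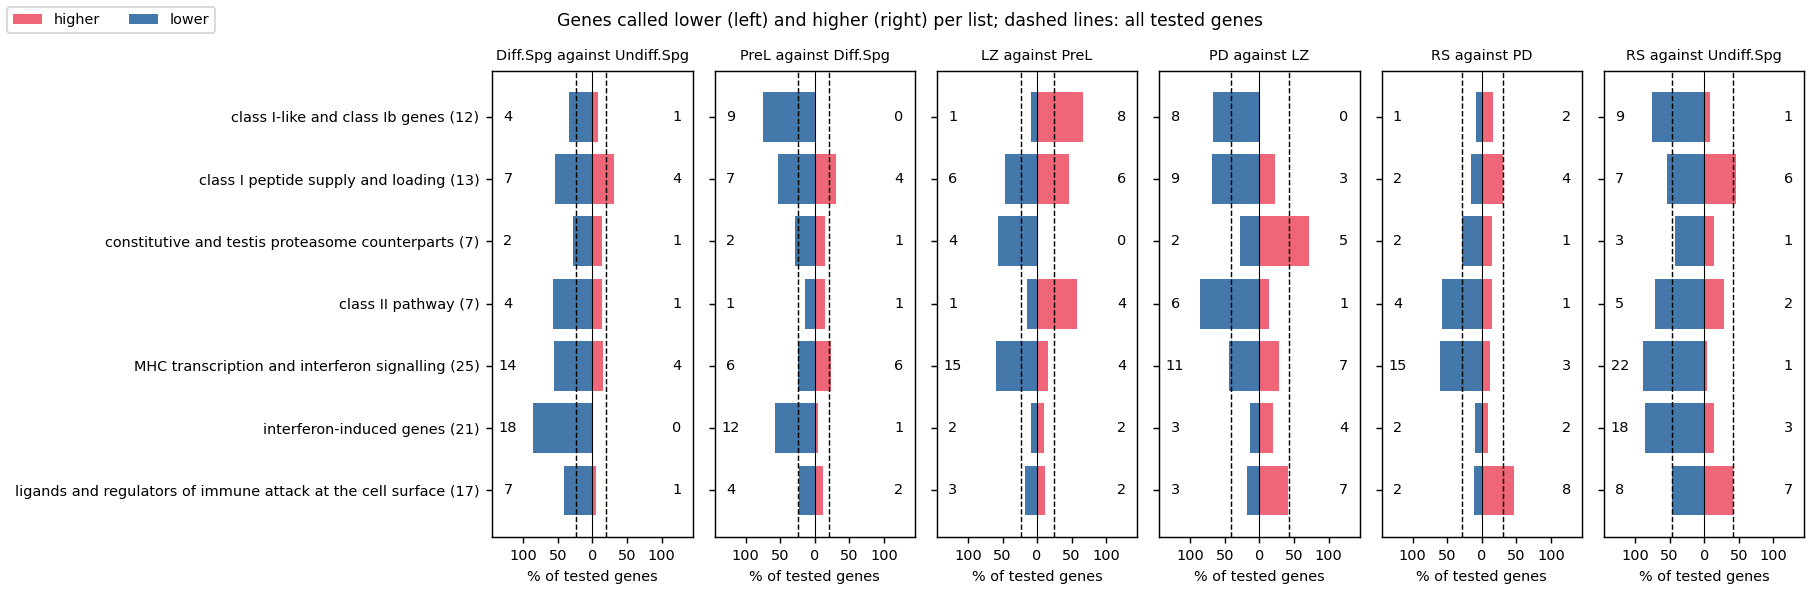
Percentage of the tested genes of each list called lower (bars to the left) and higher (bars to the right) in each of the 6 comparisons, with counts at the edges and the number tested in parentheses; dashed lines give the percentages over all 18547 tested genes. The 18 of 21 interferon-induced genes lower in Diff.Spg and the 8 of 12 class I-like genes higher in LZ are the bars farthest from the dashed lines in those comparisons.

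Among the class I-like and class Ib genes, close relatives of the classical heavy chains, 12 of 24 were tested. From Diff.Spg to PreL 9 fell and 0 rose, 75% falling against 24.8% of all tested genes. From PreL to LZ 8 rose and 1 fell, 66.7% rising against 24.3%, and from LZ to PD 8 fell and 0 rose, 66.7% falling against 40.8%. H2-Q6 was at 5.94 ± 0.747 CPM in Diff.Spg, 0.474 ± 0.341 in PreL and 6.39 ± 1.02 in LZ, a rise of 3.67 on the log2 scale (SE 0.39, edgeR adjusted p = 9.93e-07). H2-Q2 was at 7.61 ± 0.404 CPM in Undiff.Spg, 0.0549 ± 0.0951 in PreL and 0.893 ± 0.458 in LZ (log2 3.72, SE 0.70, edgeR adjusted p = 0.000306 for LZ against PreL). H2-Q7 was at 0.703 ± 0.269 CPM in PreL and 1.94 ± 0.441 in LZ (log2 1.43, SE 0.31, edgeR adjusted p = 0.00103). Without PreL replicate 2 the difference was 4.31 on the log2 scale for H2-Q6 and 6.61 for H2-Q2. These genes share sequence windows with H2-D1, 5.41% of its windows for H2-Q6 and 5.99% for H2-Q7, and H2-D1 was 19-fold higher in LZ; the part of shared reads was not tested.

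Of the class I peptide supply and loading list, 13 of 14 genes were tested. In Diff.Spg 4 rose and 7 fell, 30.8% and 53.8% against 20.4% and 23% of all tested genes. In RS against Undiff.Spg 6 were higher and 7 lower, 46.2% and 53.8%, near the 42.2% and 46.5% of all tested genes. Psmb10 fell from 106 ± 11.7 CPM in Undiff.Spg to 14.3 ± 0.978 in Diff.Spg (log2 -2.89, SE 0.20, edgeR adjusted p = 9.34e-09) and was at 0.272 ± 0.0865 CPM in RS. Erap1, the aminopeptidase that trims class I peptides, fell from 123 ± 11.1 to 30.9 ± 1.97 CPM (log2 -1.99, SE 0.20, edgeR adjusted p = 6.96e-07) and to 4.9 ± 1.19 CPM in PreL. Psme1 and Psme2, the inducible proteasome activator, fell from 27.3 ± 5.61 and 10.3 ± 1.8 CPM in LZ to 0.431 ± 0.419 and 0.276 ± 0.154 CPM in PD. Their edgeR adjusted p-values were 1.97e-10 and 3.81e-11, and the Psme1 change went from -5.94 to -7.28 on the log2 scale without PD replicate 1. Calr, a general chaperone that also assists class I folding, rose at each step up to LZ, from 453 ± 23.8 to 2551 ± 222 CPM, and fell to 1139 ± 42.6 in PD (log2 -1.16, SE 0.10, edgeR adjusted p = 1.53e-08). Pdia3, its partner, had group means between 533 and 827 CPM. Nrd1 fell from 141 ± 2.61 to 31.8 ± 4.81 CPM in Diff.Spg, then rose at each later step to 1312 ± 30.7 CPM in RS (log2 3.21, SE 0.16, edgeR adjusted p = 4.45e-12 for RS against Undiff.Spg). Tapbpl, a relative of tapasin, fell from 20.7 ± 1.88 to 4.22 ± 0.43 CPM in Diff.Spg, and rose from 0.691 ± 0.308 in PD to 7.7 ± 4.26 CPM in RS (log2 3.49, edgeR adjusted p = 2.11e-06, and log2 2.88 without RS replicate 3).

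Of the 7 constitutive and testis proteasome genes, 5 rose and 2 fell from LZ to PD, 71.4% and 28.6% against 42.1% and 40.8% of all tested genes. Psma8 rose from 13.1 ± 5.11 to 257 ± 36.8 CPM (log2 4.29, SE 0.23, edgeR adjusted p = 2.32e-11), and its somatic counterpart Psma7 fell from 45.7 ± 13.9 to 8.34 ± 1.99 CPM (-2.45, SE 0.26, edgeR adjusted p = 1.79e-07). Psme4, the activator of the testis proteasome, rose from 184 ± 23 to 841 ± 80.9 CPM in PD and to 1600 ± 54.3 CPM in RS. Psmb6, which Psmb9 replaces, fell from 251 ± 21.8 to 147 ± 0.218 CPM in Diff.Spg and was at 275 ± 34.7 CPM in RS.

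In the class II pathway list 7 of 16 genes were tested, and 4 rose and 1 fell from PreL to LZ (57.1% and 14.3% against 24.3% and 23.2% of all tested genes). From LZ to PD 6 fell and 1 rose (85.7% and 14.3% against 40.8% and 42.1%). H2-DMa, a chain of the peptide editor of class II, rose from 3.26 ± 0.752 to 16.7 ± 3.53 CPM (log2 2.36, SE 0.21, edgeR adjusted p = 1.79e-07) from PreL to LZ. H2-DMb1, a beta chain of that editor, was at 0.096 ± 0.107 CPM in LZ and rose to 8.74 ± 2.18 CPM in PD (log2 6.36, SE 0.62, edgeR adjusted p = 5.44e-08), a change of 7.55 without LZ replicate 2 and 5.62 without LZ replicate 3. The lysosomal reductase Ifi30 rose from 43.4 ± 8.14 to 115 ± 21.9 CPM in LZ and fell to 0.313 ± 0.283 CPM in PD (log2 -8.48, SE 0.37, edgeR adjusted p = 2.13e-12, and -9.34 without PD replicate 1). The protease genes Ctsl and Lgmn fell at the same step, from 123 ± 4.65 to 2.07 ± 0.675 CPM and from 42.9 ± 7.59 to 5.79 ± 2.43 CPM.

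All 25 genes of MHC transcription and interferon signalling were tested, and 22 were lower and 1 higher in RS than in Undiff.Spg, 88% and 4% against 46.5% and 42.2% of all tested genes. From PreL to LZ, the step up to the highest class I levels, 4 rose and 15 fell, 16% and 60% against 24.3% and 23.2%. Irf1, an interferon-responsive activator of class I genes, fell from 181 ± 11.2 CPM in Undiff.Spg to 38.8 ± 1.58 in Diff.Spg and 4.87 ± 0.838 in PreL. It fell further to 1.5 ± 0.396 CPM in LZ (log2 -1.69, SE 0.23, edgeR adjusted p = 1.42e-05), so it ran against H2-K1 at all 3 steps. Irf8 fell from 18.3 ± 0.818 CPM in Undiff.Spg to 0.479 ± 0.415 in PreL, and Socs3, a brake on cytokine signals, from 54.5 ± 2.9 to 0.611 ± 0.0901 CPM. Nfkb1 fell from 9.39 ± 1.66 CPM in PreL to 2.17 ± 0.584 in LZ (log2 -2.12, SE 0.22, edgeR adjusted p = 8.27e-07) and rose to 20.4 ± 1.18 CPM in RS. Rela, the partner subunit of NF-kappaB, was at 92.6 ± 11.5 CPM in PreL and 66.5 ± 4.73 in LZ. Ifnar1, a chain of the type I interferon receptor, rose from 100 ± 4.54 CPM in PreL to 307 ± 35.2 in LZ (log2 1.61, SE 0.14, edgeR adjusted p = 1.54e-07). Ifnar2, the other chain, was at 8.51 ± 0.706 CPM in Undiff.Spg and at 0.145 ± 0.0674 CPM in LZ. Jak1 and Jak2, kinases of interferon signalling, were at 153 ± 9.79 and 101 ± 5.81 CPM in LZ and fell to 6.49 ± 1.62 and 0.837 ± 0.227 CPM in PD. Irf2 rose from 4 ± 0.578 CPM in PD to 40.4 ± 2.52 in RS (log2 3.33, SE 0.45, edgeR adjusted p = 6.31e-06).

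The interferon-induced genes had the lowest median of the 7 lists between the spermatogonial populations: of 21 tested among 28, 18 fell and 0 rose in Diff.Spg, with a median log2 change of -2.65. The falls were 85.7% of the list against 23% of all tested genes. From Diff.Spg to PreL 12 fell and 1 rose, 57.1% falling against 24.8%. Markers of other cell types were also lower in Diff.Spg than in Undiff.Spg: the 9 peritubular and connective tissue markers summed to 32.4 to 37.1 against 97.2 to 146 CPM, with Dcn and Lum at 0 in Diff.Spg. The 18 leukocyte markers summed to 3.51 to 4.61 against 13.1 to 26.8 CPM, with Adgre1 and C1qb at 0 in Diff.Spg, and the 9 endothelial markers to 27.4 to 30.6 against 41.5 to 50.3 CPM. No marker of these 3 lists was at 0 in Undiff.Spg, and the part of such cells in the changes of this step, those of Tap1, Tapbp, Psmb8, Psmb9 and B2m included, was not tested. Oasl2 fell from 157 ± 4.93 CPM in Undiff.Spg to 13.1 ± 1.62 in Diff.Spg (log2 -3.58, SE 0.27, edgeR adjusted p = 3.44e-08) and 0.0238 ± 0.0412 in PreL. The guanylate-binding protein gene Gbp2 fell from 23.3 ± 3.21 to 0.474 ± 0.237 CPM (log2 -5.60, SE 0.34, edgeR adjusted p = 2.98e-07), and its relative Gbp3 from 26.6 ± 2.9 to 0.949 ± 0.223 CPM. From PreL to LZ 2 rose, 2 fell and 17 did not pass the test, 9.52% each way against 24.3% and 23.2%. Dhx58 and Ddx58, genes of the RNA-sensing pathway, rose in PD, Dhx58 from 2.52 ± 2.1 to 149 ± 4.03 CPM (log2 5.87, SE 0.40, edgeR adjusted p = 5.35e-10) and Ddx58 from 0.246 ± 0.114 to 6.27 ± 1.63 CPM. The Dhx58 change was 6.81 without LZ replicate 2. Both were among the 3 higher in RS than in Undiff.Spg, where 18 were lower, 14.3% and 85.7% against 42.2% and 46.5%.

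Of the ligands and regulators of immune attack at the cell surface, 17 of 23 were tested. In Diff.Spg 7 fell and 1 rose, 41.2% and 5.88% against 23% and 20.4% of all tested genes. Cd274, the checkpoint ligand PD-L1, fell from 76.6 ± 3.25 to 4.24 ± 0.259 CPM (log2 -4.17, SE 0.23, edgeR adjusted p = 1.02e-09), and Cd276, a further B7 family member, from 114 ± 8.81 to 9.09 ± 1.71 CPM (log2 -3.65, SE 0.36, edgeR adjusted p = 1.39e-06). From LZ to PD 7 rose, 41.2% and near the 42.1% of all tested genes, and 3 fell, 17.6% against 40.8%. The complement regulator Cd55b rose from 4.18 ± 5.84 to 271 ± 28.4 CPM (log2 6.00, SE 0.83, edgeR adjusted p = 4.28e-06) and was at 356 ± 35.8 CPM in RS. Its LZ libraries held 0.46, 10.9 and 1.17 CPM, and the change was 8.34 without LZ replicate 2 and 5.37 without LZ replicate 3. Cd59b, another complement regulator, rose from 1.09 ± 0.272 CPM in PD to 6.22 ± 1.3 in RS, and Vtcn1, a B7 family ligand, from 0.772 ± 0.602 to 7.81 ± 1.31 CPM (log2 3.31, and 4.09 without PD replicate 1). Cd47, the signal against engulfment, was at 57.1 ± 8.51 CPM in LZ and fell to 0.248 ± 0.103 in PD (log2 -7.79, SE 0.26, edgeR adjusted p = 1.29e-13).

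The genes nearest in course to each of the 10 were found by the root mean square difference of group-mean log2 profiles over the 6 groups, each centred on its own mean. H2-Ab1 was nearest to Meiob (0.26), a meiotic recombination gene, which was at 113 CPM in LZ and 4.3 in PreL. H2-D1 was nearest to Rad21l (0.55), a meiotic cohesin, and Ccnb3 (0.60), and H2-K1 to Meioc (0.82) and H1fx (1.15). Lclat1 (0.55) and Rnf212 (0.56), a meiotic crossover gene, were nearest to B2m. Tapbp was nearest to Arrdc3 (0.35) and Cbx7 (0.40), and Psmb9 to Pax8 and Zfp773 (both 0.14). Tap1, Tap2, Nlrc5 and Psmb8 had differences of 0.03 to 0.20 to Ushbp1, Svs5, Mageb18, Wfdc2, Sytl3, Slc16a9, Hmx2 and BC043934, where low levels leave little room for a difference. Within the 10, Tap1 and Psmb8 (0.42), B2m and Tap2 (0.43) and Tap1 and Psmb9 (0.59) were closest, and H2-K1 and Tapbp were at 3.74.

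The neighbours were counted after the levels were seen. Between Tapbp and H2-D1, 76 tested genes are not among the 10, and 19 of them (25%) were highest in LZ, against 17.4% of all tested genes. The shares highest in Undiff.Spg and RS were 21.1% and 23.7%, against 19.5% and 27.1%.

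Without PreL replicate 2 and LZ replicate 2 the LZ to PreL differences on the log2 scale were 2.87 for H2-K1, 4.56 for H2-D1, 2.83 for B2m, 4.88 for H2-Ab1 and 4.11 for Tap2. Without LZ replicate 1 they were 2.95, 4.46, 2.95, 4.52 and 2.94 in the same order of genes. Among the marker lists of other cell types, the Sertoli list summed to 23.3 to 37.8 CPM in LZ, highest in replicate 1, where H2-K1, H2-D1 and H2-Ab1 were lowest of the 3, and to 7.19 to 9.43 CPM in PreL. None of its 12 markers was at 0 in LZ, nor in Undiff.Spg, Diff.Spg or PreL, and Amhr2 reached 14 CPM in LZ. The Sertoli sum was 31.8 to 32.4 CPM in Undiff.Spg and 19.7 to 22.4 CPM in Diff.Spg. It was 7.87 to 9.96 CPM in PD and 11.1 to 12.3 CPM in RS. Leydig markers summed to at most 9.58 CPM and erythroid markers to at most 1.62 CPM in any library. Peritubular and connective tissue markers summed to 97.2 to 146 CPM in Undiff.Spg, led by Col1a1 at up to 134 CPM, and to 14.9 to 17.4 CPM in LZ. Endothelial markers were at 41.5 to 50.3 CPM in Undiff.Spg and 13.6 to 18.2 CPM in LZ. In RS the leukocyte sum of 238 to 256 CPM was led by Aif1, with C1qa, Fcer1g, Tyrobp and Cd79a at 0. The part of these cells in the results was not tested.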

How the data were processed

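Per the labels' protocols, sorted cells were extracted with a Qiagen kit and DNase, and sequencing was in single-read mode on an Illumina HiSeq. The authors deposited whole-number read counts per gene, unscaled. Their processing notes name GRCm38 as the build and HTSeq, STAR 2.4.2a, DESeq2 and cutadapt as tools. The sources used here give no annotation release, strand setting or filters. No molecular identifiers are mentioned, so floors cover counting error only.

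The genes and lists were chosen with earlier results of these data known. Of 46603 gene IDs, 46091 (98.9%) were found in GENCODE M21. Genes kept by filterByExpr (18547) entered 1 quasi-likelihood model of the 6 groups in edgeR 4.0.16 (R 4.3.3) with TMM scaling, a common BCV of 0.2025 and Benjamini-Hochberg adjustment over all tested genes within each of 6 comparisons, 2-sided. An SE is the absolute log2 change over the square root of F. The fit was tested on simulated data. CPM per kb uses the longest coding transcript. A floor is 3 reads over a group.

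The genes named are the 10, and from each list the 3 with the highest mean and up to 2 called genes per comparison with the largest change among those at 5 CPM or more; not every one so chosen is described. For nearest profiles, 0.5 CPM was added. H2-Aa, Cd74, H2-Eb1, Ciita, Psmb5, the motifs and the neighbours were chosen after values were seen. Replicates of a group differed by 2.49 to 52.7 times the counting variance, so none were copies. Replicate numbers come from the labels. Deviations of same-numbered libraries correlated by 0.121 to 0.445 for PreL and Diff.Spg and by 0.254 to 0.683 for LZ and PreL, above 0.1 in every pair. Differently numbered libraries reached 0.193 and 0.286 there, above the lowest same-numbered values, and the highest same-numbered values were those of replicate 2. Whether the numbers pair samples is therefore not settled, and the replicate block was fitted only as an alternative. In the 4 other comparisons at least 1 pair fell below 0.1. Alternatives were other scalings, filters, DESeq2 1.42.0, fits of 2 groups, the replicate block, a prior of 2 CPM and each library left out.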

Additional observations from a re-analysis of the deposited data

How the results depend on the processing

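Of 624 counts of called genes recomputed under the alternatives, 623 stayed within 1.5 times the reported count; with only the 2 groups compared, 21 rather than 32 of the other pathway genes fell from PreL to LZ. Leaving out each library in turn gave 51 to 60 falls in Diff.Spg, 39 to 43 in PreL, 24 to 35 in LZ, 39 to 47 in PD, 26 to 30 in RS, and 72 to 75 in RS against Undiff.Spg.

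Scaling mattered most for RS against Undiff.Spg, where total library size moved the median of all genes by -0.798 on the log2 scale. Under it Pdia3 (-0.55), Psmb6 (-0.67) and Nfkb1 (-0.48) turned lower in RS. Leaving out 1 library at a time, Pdia3 ranged from -0.12 to 0.28. It was below 0 without LZ replicate 3 and without each PD or RS library. In those fits the median of all genes moved too, by -0.306 to -0.421 on the log2 scale. The sum of the 31 H2 class I genes was at -0.42. That is a different quantity from H2-K1 alone, which stayed at 2.05 to 3.05 over the alternatives. Irf2, which did not pass the test from PreL to LZ (-0.03), ranged from -0.64 to 3.53 with 1 library left out, highest without PreL replicate 2 (edgeR adjusted p = 0.00544), and was 3.36 without both libraries numbered 2 (edgeR adjusted p = 0.013). The cause was not tested. Over the 10 members 1331 values moved by less than 1 SD of the replicates and 217 were counted as moving further. The 217 include values that stayed at 0.00 where neither group had a read and so no spread, as for Psmb8 in LZ against PreL. Sign changes are within the 1331 and 217 values, as for H2-Ab1 in Diff.Spg against Undiff.Spg (-1.96 to 0.59). Nlrc5 in RS against Undiff.Spg also crossed 0 (-0.15 to 0.86). The 1 remaining value, counted as reversed, was the class I sum set in place of H2-K1. Calls of the 10 members ranged over the alternatives from 6 to 8 lower in Diff.Spg, and from 2 to 3 higher and 3 to 5 lower in PreL. They were 1 to 2 higher and 5 to 6 lower in PD, and 1 to 2 higher and 6 to 7 lower in RS against Undiff.Spg. The other counts did not change. Over named pathway genes 7621 values kept direction and side of the threshold, 172 lost and 97 gained the call.

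With the replicate number as a block, Blmh in PreL against Diff.Spg went from an edgeR adjusted p of 0.0422 to 0.0503, and Pdia3 in LZ against PreL from 0.0419 to 0.057. In comparisons with a same-numbered pair below 0.1, Pdia3 and Psme3 lost the call in Diff.Spg against Undiff.Spg (0.056 and 0.0634). Cd59b gained it there (0.0429), and Pdia3 lost it in RS against Undiff.Spg (0.0527). The block changed no other call of a named pathway gene. Depth limits Tap1, Tap2, Nlrc5, Psmb8 and Psmb9, whose lowest groups hold 0 to 4 reads.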
